A study of Homo sapiens with 4 samples.

Results

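The apolipoproteins are the protein components of lipoprotein particles, and MTTP is the transfer protein that loads lipid onto one of them. The 10 genes described here are APOA1, APOA2, APOA4, APOB, APOC1, APOE, APOH, APOL1, APOM and MTTP, out of 19775 genes with a probe set of their own. They were measured in AGS, an established human cell line of gastric adenocarcinoma, on 2 arrays of PRMT6-knockout cells and 2 arrays of control cells with wild-type PRMT6. PRMT6 is an arginine methyltransferase of histone H3. The knockout cells carried a lentiviral Cas9 vector with 1 guide against PRMT6, were selected with puromycin and were cloned by limiting dilution. The labels do not name the clone on a given knockout array, or say which vector and selection the control cells received. Nor do they say that arrays of a group came from separate cultures, so p-values measure the spread between these arrays, which may be technical. An effect of the knockout cannot be told apart from a difference between clones. The 10 genes were proposed with values of this comparison known. Their differences are given as a description, with errors and without p-values.

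Liver and small intestine secrete most circulating lipoproteins. APOB forms the protein scaffold of chylomicrons and very low density lipoproteins and is degraded unless MTTP lipidates it during synthesis, whereas APOA1 and APOA2 build high density lipoprotein (HDL). The smaller apolipoproteins move between particles and act as ligands, activators or inhibitors of receptors and lipases. The comparison shows which of their transcripts differed between PRMT6-knockout and control cells of a gastric cell line.

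APOA2 stood apart from the other 9 genes: its transcript was 12.4-fold lower in the knockout cells, and both of its probe sets gave nearly the same value. APOC1 and APOH were higher on their brightest probe sets, by 0.50 and 0.73 on the log2 scale, but the other APOH probe set gave -0.02. APOA1 and APOL1 differed by less, and APOA4, APOB, APOE, APOM and MTTP had overlapping arrays on their brightest probe sets. On the other 2 probe sets of APOE, at -0.58 and -0.36, the groups did not overlap, but neither passed the test over all probe sets. To show DNA next to the genes that differed most, and the neighbours APOE and APOC1, windows of 250 bases are printed below. Each lies before a RefSeq start of the gene (GRCh38.p14), 5′ to 3′ on the gene's strand. A gene can have other starts, and windows at any other start of these genes are not shown. Capitals mark matches to 2 of 6 searched motifs, the E-box CANNTG and the CCAAT box, on either strand.
APOA2, chr1:161223629-161223878, - strand: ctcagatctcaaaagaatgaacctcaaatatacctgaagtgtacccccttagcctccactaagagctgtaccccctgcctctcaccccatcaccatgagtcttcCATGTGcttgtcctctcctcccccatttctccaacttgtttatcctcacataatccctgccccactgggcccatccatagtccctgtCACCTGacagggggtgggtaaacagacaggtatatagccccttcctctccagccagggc
APOC1, chr19:44914422-44914671, + strand: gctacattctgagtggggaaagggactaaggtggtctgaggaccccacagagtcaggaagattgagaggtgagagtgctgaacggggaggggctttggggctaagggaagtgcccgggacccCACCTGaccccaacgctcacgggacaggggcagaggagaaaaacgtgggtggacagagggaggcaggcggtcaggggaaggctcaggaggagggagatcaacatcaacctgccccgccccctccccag
APOE, chr19:44906151-44906400, + strand: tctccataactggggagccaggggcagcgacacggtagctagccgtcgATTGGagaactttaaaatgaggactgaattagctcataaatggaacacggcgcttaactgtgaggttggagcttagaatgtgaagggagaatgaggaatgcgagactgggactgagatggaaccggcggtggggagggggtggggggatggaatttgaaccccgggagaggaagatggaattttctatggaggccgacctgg
APOH, chr17:66229416-66229665, - strand: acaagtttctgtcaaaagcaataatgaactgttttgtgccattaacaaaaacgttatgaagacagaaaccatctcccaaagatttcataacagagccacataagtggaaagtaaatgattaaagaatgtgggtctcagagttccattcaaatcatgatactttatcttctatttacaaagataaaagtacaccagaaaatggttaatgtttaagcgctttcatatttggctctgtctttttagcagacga

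The APOA2 window held 2 E-boxes, at bases 146 to 141 and 59 to 54 before the start, and the APOC1 window held 1, at bases 128 to 123. APOE held an inverted CCAAT box at bases 202 to 198, and APOH held no searched motif. Of 35116 RefSeq promoter windows of the same length, 61.8% held an E-box and 32% a CCAAT box, so neither match is rare. None of the 4 windows held the other motifs searched, which were CAAAGTCCA of HNF4 (in 0.325% of windows), the nuclear receptor motif AGGTCA (12.1%), the C/EBP-ATF core TGATGNAA (3.14%) and the TATA box TATAAA (10.7%). These letter matches describe the window and do not show binding. Among the 10 genes, 7 had a promoter in the RefSeq table.

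All values are log2 intensities after RMA, the normalization the submitters name, so 1 unit is a doubling. Each gene is represented by its brightest probe set, and its other probe sets serve as a check. The targeted gene PRMT6 had 7.79 and 7.63 on the knockout arrays, against 8.03 and 8.11 on the control arrays. It fell by 0.36 (SE 0.09; adjusted p = 0.043, limma), a call lost with any 1 array left out, and its probe set does not test the edit. Array medians were 5.01 to 5.02, and arrays correlated over probe sets at a Pearson's r of 0.996 within the knockout group, 0.995 within the control group and 0.981 to 0.984 across groups. Differences are knockout minus control, and called genes are those at an adjusted p below 0.05 in limma after Benjamini-Hochberg adjustment over all genes.

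Of the 10 genes, 3 were called (2 higher, 1 lower), where 24.0% of all genes were called, 12.4% higher and 11.5% lower. The 2 groups of arrays were fully separated for 5 of the 10 genes, 3 of them higher and 2 lower, where 58.2% of all genes were separated, 29.1% in each direction. With single arrays left out APOA2 was called each time, APOC1 only without control 1, and APOH in none of these fits. The median difference of the 10 genes was 0.05, against -0.01 over all genes. Since these genes were chosen with the comparison known, nothing is read from these counts, and they do not describe a shift of the family.

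**Figure D1:**
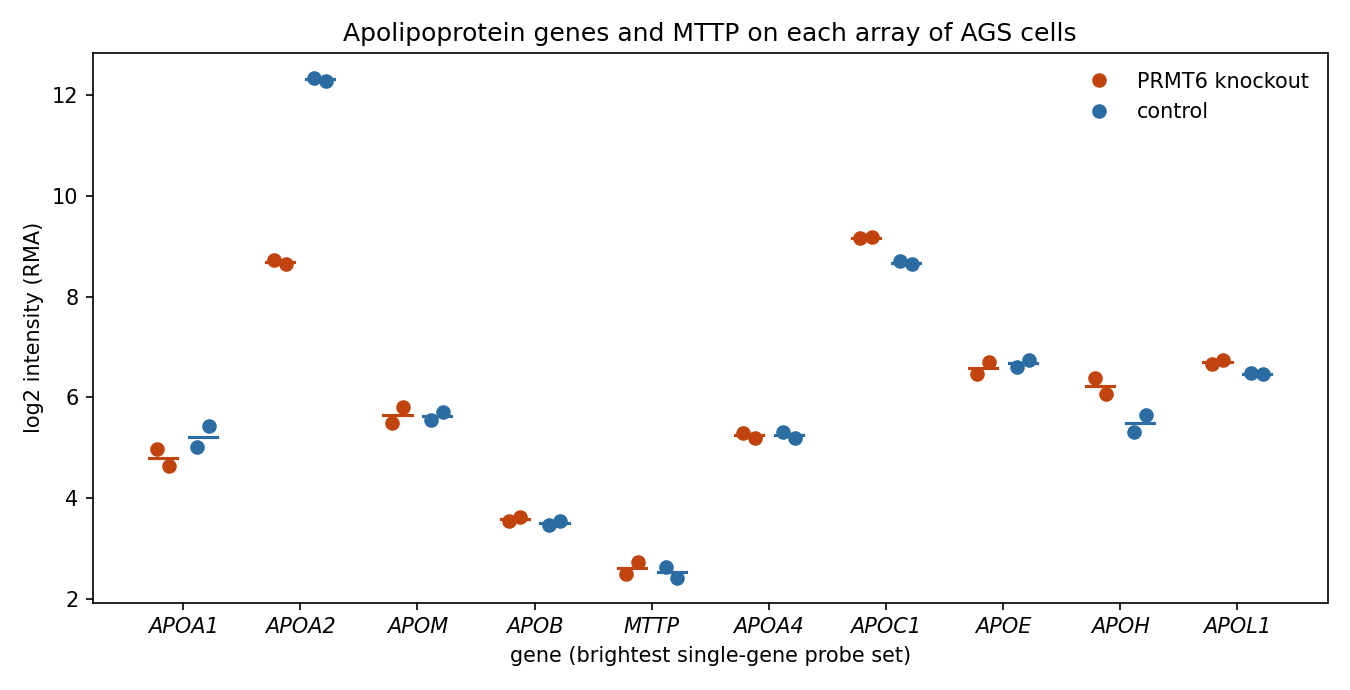
Log2 intensity (vertical axis) of the 10 genes on each array, with PRMT6-knockout arrays left and control arrays right of each gene's centre; points are single arrays and bars are group means of 2 arrays. APOA2 lies at 8.73 and 8.64 in knockout cells against 12.34 and 12.29 in control cells, while the other 9 genes differ by less than 1 unit.

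Among the HDL apolipoproteins, APOA2, the second most abundant protein of HDL, had 8.73 and 8.64 on the knockout arrays, against 12.34 and 12.29 on the control arrays. The groups were separated by 3.56 between their nearest arrays, while arrays of 1 group differed by 0.09 (knockout) and 0.05 (control). The difference was -3.63 (SE 0.08, 95% confidence interval -3.83 to -3.43), and only 10 of the 19775 genes had a larger difference downward. Its second probe set, whose name marks it as specific to the gene, had 8.32 and 8.42 in knockout cells, against 11.97 and 12.06 in control cells, a difference of -3.65 (SE 0.09). APOA2 was the only one of the 10 genes called under every alternative run, with a difference between -3.93 and -3.59. In knockout cells the APOA2 probe set still lay above 5.97, the level of the median gene.

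APOA1, the main structural protein of HDL and activator of the cholesterol esterifying enzyme LCAT, had 4.97 and 4.63 on the knockout arrays, against 5.02 and 5.43 on the control arrays. The groups did not overlap, but their nearest arrays were only 0.04 apart, while arrays of 1 group differed by 0.34 (knockout) and 0.41 (control). The difference of -0.42 (SE 0.18) had an interval of -0.87 to 0.04. Of its other probe sets, 1 differed by -0.27 (SE 0.12) and the gene-specific one by 0.12 (SE 0.09), so the direction depended on the probe set. APOM, a lipocalin of HDL that carries sphingosine-1-phosphate, had 5.49 and 5.82 in knockout cells, against 5.55 and 5.71 in control cells. Its arrays overlapped, with a difference of 0.02 (SE 0.13, interval -0.31 to 0.36), and its second probe set gave -0.06 (SE 0.11).

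APOB, the non-exchangeable scaffold of chylomicrons and low density lipoprotein, had 3.56 and 3.63 on the knockout arrays, against 3.47 and 3.56 on the control arrays. Its difference was 0.08 (SE 0.08, interval -0.13 to 0.29), and a second probe set gave -0.11 (SE 0.12). MTTP, the microsomal triglyceride transfer protein, had 2.48 and 2.73 in knockout cells, against 2.63 and 2.42 in control cells. Its only probe set differed by 0.08 (SE 0.12, interval -0.23 to 0.39). Both genes had overlapping arrays and were dim. APOA1, APOA4, APOB, APOM and MTTP lay below the median gene's 5.97 on all 4 arrays; detection calls were not used, so these levels may or may not exceed background, and RMA compresses differences of dim probe sets. Brightness depends on a probe set's own sequences, so it does not rank transcripts against each other.

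Among the exchangeable apolipoproteins, APOC1, an inhibitor of lipoprotein lipase and of cholesteryl ester transfer, had 9.16 and 9.19 on the knockout arrays, against 8.70 and 8.65 on the control arrays. Its groups were separated by 0.46, while arrays of 1 group differed by 0.03 (knockout) and 0.05 (control), and the difference was 0.50 (SE 0.08, interval 0.31 to 0.69), or 1.41-fold. The second probe set gave 0.24 (SE 0.10), the same direction at a smaller size. Both probe sets carry the suffix that the platform gives to probes which may cross-hybridize, and APOC1 has a close pseudogene copy, so its share of the signal is uncertain. The brightest probe sets of APOA1, APOE and APOM carry the same suffix. APOA4, a protein of intestinal chylomicrons, had 5.29 and 5.20 in knockout cells, against 5.32 and 5.19 in control cells. Its arrays overlapped and the difference was -0.01 (SE 0.09, interval -0.23 to 0.22).

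APOE, the ligand that carries remnant particles to receptors of the LDL receptor family, was read by 3 probe sets that disagreed in size. On the brightest, it had 6.46 and 6.71 in knockout cells, against 6.61 and 6.74 in control cells, with overlapping arrays and a difference of -0.09 (SE 0.11, interval -0.38 to 0.20). The next probe set had 5.66 and 5.73 in knockout cells, against 6.12 and 6.43 in control cells, a difference of -0.58 (SE 0.13, interval -0.92 to -0.24). The dimmest had 5.37 and 5.37 in knockout cells, against 5.64 and 5.82 in control cells, a difference of -0.36 (SE 0.10, interval -0.62 to -0.10). All 3 values were below 0, and on both dimmer probe sets the groups did not overlap. None of the 3 was called in the fit over all probe sets. The starts used here for APOE and APOC1 lie 8271 bases apart on the plus strand of chromosome 19. The estimates of the 2 genes had opposite signs, with overlapping arrays for APOE on its brightest probe set. The difference between these 2 neighbours was not tested.

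APOH, or beta-2-glycoprotein I, a plasma protein that binds phospholipid, had 6.38 and 6.06 on the knockout arrays, against 5.31 and 5.66 on the control arrays. The groups were separated by 0.40, close to the 0.32 (knockout) and 0.35 (control) between arrays of 1 group, and the difference was 0.73 (SE 0.16, interval 0.32 to 1.15), or 1.66-fold. Its second probe set, the gene-specific one, had 5.07 and 5.19 in knockout cells, against 5.19 and 5.10 in control cells, a difference of -0.02 (SE 0.10). The higher level of APOH therefore rested on 1 of 2 probe sets, which was not called in the fit over all probe sets. APOL1, the component of human HDL that kills trypanosomes, had 6.67 and 6.75 in knockout cells, against 6.48 and 6.46 in control cells. Its only probe set differed by 0.24 (SE 0.08, interval 0.04 to 0.44) with no overlap, and it was not called. With arrays scaled to reference genes, APOL1 became -0.06 and APOC1 0.20. Under that scaling the median over all genes was -0.31, against -0.01 without it, and relative to that median the differences were 0.24 and 0.50. Of the 11 reference genes measured, 6 were themselves called higher and 0 lower, so the scaling lowered every gene's difference.

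**Figure D2:**
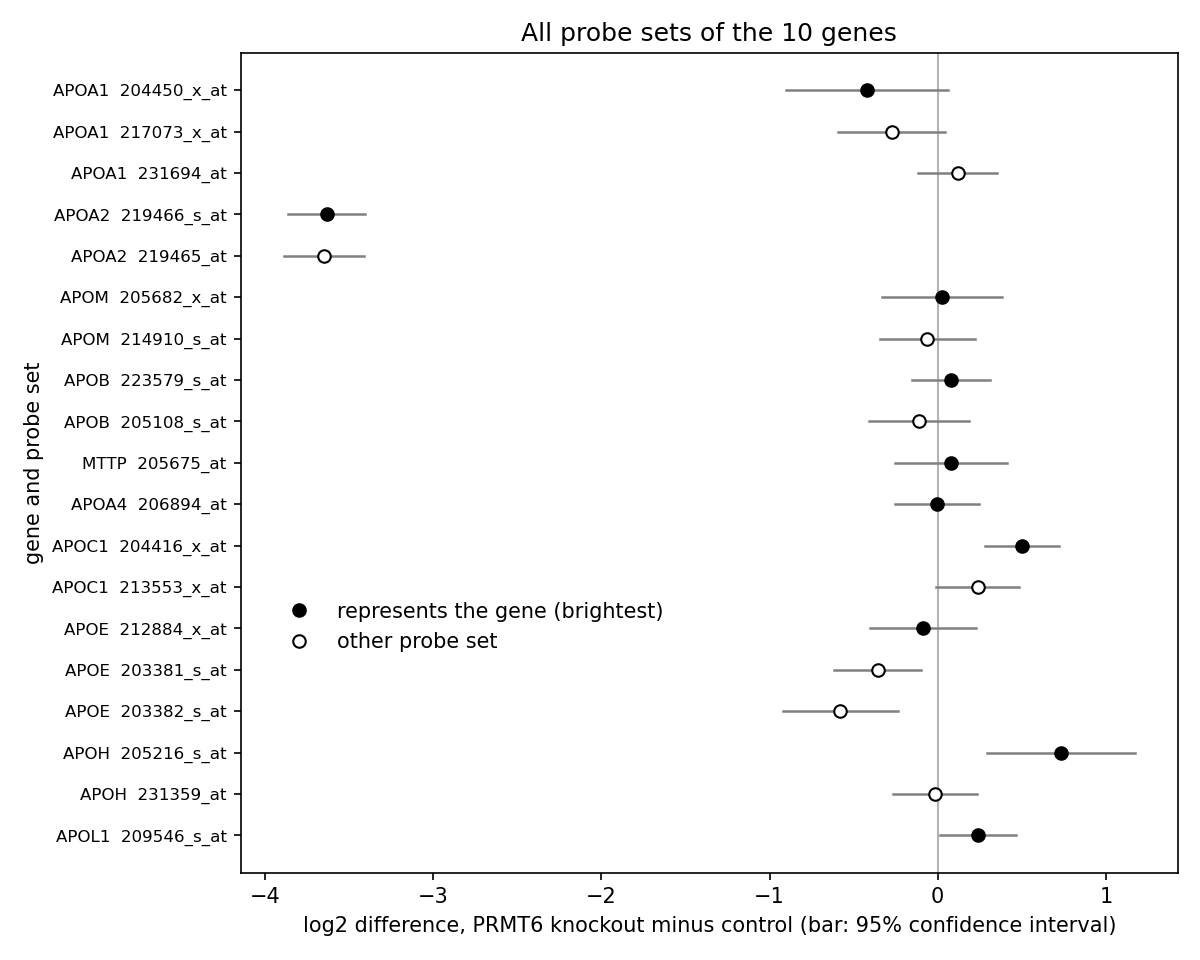
Log2 difference, PRMT6 knockout minus control (horizontal axis), with its 95% confidence interval (bar) for the 19 probe sets of the 10 genes, from a limma fit across all probe sets; filled points represent the gene. The 2 probe sets of APOA2 lie at -3.63 and -3.65, those of APOE run from -0.58 to -0.09, and those of APOH lie at 0.73 and -0.02.

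The 3 other genes whose profile over the 4 arrays, centred on its own mean, was nearest to that of APOA2 were MMP1, NUPR1 and TFF1. MMP1, an interstitial collagenase, lay at a Euclidean distance of 0.30, with 9.20 and 9.17 in knockout cells against 12.72 and 12.42 in control cells. NUPR1, a stress-inducible nuclear protein, lay at 0.42 and fell by 3.26 (SE 0.10). TFF1, a trefoil peptide of gastric surface cells, lay at 0.47 and fell by 3.37 (SE 0.16). With 2 groups of 2 arrays, such likeness reflects mainly the size of the group difference. These genes were picked by it on the same arrays, so no p-values are given.

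**Figure D3:**
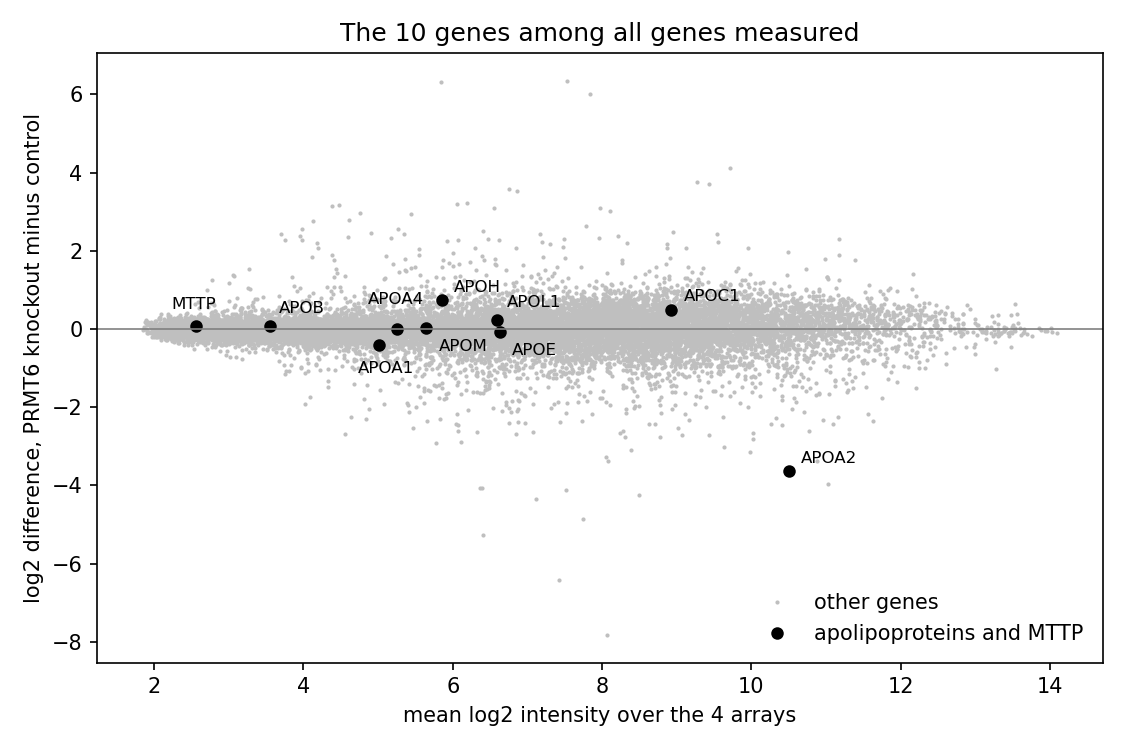
Log2 difference, PRMT6 knockout minus control (vertical axis), against mean log2 intensity over the 4 arrays (horizontal axis) for 19775 genes in grey, with the 10 genes as labelled black points. APOA2 lies at -3.63 near the lower edge of the cloud, and the other 9 genes lie between -0.42 and 0.73.

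The genes next to the members on chromosomes 11 and 19 mostly did not pass the test. In the APOE cluster on chromosome 19, TOMM40, a channel subunit of the mitochondrial outer membrane, had 10.00 and 10.15 in knockout cells, against 9.44 and 9.30 in control cells, and rose by 0.70 (SE 0.10; adjusted p = 0.0072, limma). It lost its call in the fits without control 2, knockout 1 or knockout 2, where the adjusted p reached 0.090. APOC2, the activator of lipoprotein lipase, differed by 0.06 (SE 0.11), and the adhesion gene NECTIN2 by 0.09 (SE 0.09). In the APOA1 cluster on chromosome 11, APOC3, an inhibitor of triglyceride clearance, differed by 0.12 (SE 0.14), APOA5 by 0.02 (SE 0.11), ZPR1 by -0.04 (SE 0.08) and SIK3 by -0.07 (SE 0.09). APOC4 was not analysed here.

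Other genes of lipoprotein metabolism were followed in 6 lists chosen by function, with earlier results of these data known. Of their 83 measured genes, 12 rose and 13 fell, together 30.1% of them, where 24.0% of all genes were called (12.4% higher and 11.5% lower). The median difference was -0.03. The transcription factors, a list brighter than genes at large, gave 4 of the 12 and 7 of the 13. Nothing is therefore read from the 30.1%. Among 15 other apolipoproteins, APOL2 rose by 0.61 (SE 0.11; adjusted p = 0.018, limma) and APOO, a mitochondrial protein despite its name, rose by 0.40 (SE 0.09; adjusted p = 0.037). The other 13 did not pass the test, and the list median was 0.05. APOL2 and APOO lost their calls with any 1 array left out and under reference gene scaling, APOL2 also with the mean of its probe sets and APOO also with the replicate block (adjusted p = 0.068).

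In the list of assembly and secretion of APOB particles, 4 of 18 genes fell and 1 rose, with a median of -0.07. MIA2 and MIA3, cargo receptors that load large particles into secretory vesicles at the endoplasmic reticulum, fell by 1.34 (SE 0.09) and 1.15 (SE 0.10). SURF4, a cargo receptor for secreted lipoproteins, fell by 0.73 (SE 0.08). P4HB, the disulfide isomerase that is the obligate partner of MTTP, fell by 0.62 (SE 0.07), with 11.75 and 11.77 in knockout cells against 12.39 and 12.38 in control cells. SOAT1, which esterifies cholesterol, rose by 0.66 (SE 0.08). In limma the adjusted p of these 5 genes lay between 0.0011 (MIA2) and 0.0055 (SOAT1). For MIA2 the gene-specific probe set gave -0.01 and was not called (adjusted p = 0.98). MIA3, SURF4, P4HB and SOAT1 were no longer called when knockout 1 or knockout 2 was dropped (highest adjusted p from 0.059 to 0.071).

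Of 8 genes of HDL formation and remodelling, PON2, an intracellular paraoxonase, rose by 0.94 (SE 0.08), while ABCA1, the transporter that lipidates APOA1, fell by 0.75 (SE 0.11) and PLTP, which transfers phospholipid between particles, fell by 0.70 (SE 0.10). ABCA1 had 7.70 and 7.62 in knockout cells, against 8.29 and 8.53 in control cells. The list median was -0.15. Among 13 receptor genes, OLR1, a receptor for oxidized LDL, rose by 3.57 (SE 0.10), and LRPAP1, a chaperone of the LDL receptor family, rose by 0.42 (SE 0.08), with a list median of 0.01. Of 7 lipase genes, the endothelial lipase LIPG rose by 0.90 (SE 0.10) and the lysosomal lipase LIPA by 0.59 (SE 0.09), with a median of 0.08. In limma the adjusted p of these 7 genes lay between 0.00022 (OLR1) and 0.016 (LRPAP1). OLR1 was called with any array left out. PON2 was lost only without knockout 1 (adjusted p = 0.051), ABCA1, PLTP, LIPG and LIPA without knockout 1 and without knockout 2 (highest adjusted p from 0.069 to 0.10), and LRPAP1 with any 1 array left out (highest 0.12). LRPAP1 was also lost under reference gene scaling.

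Of 22 transcription factors known to act on apolipoprotein genes, 4 rose and 7 fell, and the list median was -0.11. Together these were 50% of the list, where 24.0% of all genes were called. The list was brighter than genes at large: 3 of the 22 lay below the median gene on all arrays, against 9411 of all 19775. A fit of the 9888 brighter genes alone called 5567 of them. The 24.0% is therefore not a background of like brightness, and nothing is read from the 50%. CEBPB, a factor of liver and stress-responsive genes, had 10.31 and 10.64 on the knockout arrays, against 12.64 and 12.66 on the control arrays, and fell by 2.17 (SE 0.13; adjusted p = 0.00083, limma). NR2F1, an orphan nuclear receptor that binds the same kind of element as HNF4, had 6.98 and 7.16 in knockout cells, against 5.47 and 5.63 in control cells, and rose by 1.52 (SE 0.11; adjusted p = 0.0012). PPARGC1A, a coactivator of nuclear receptors, fell by 1.43 (SE 0.07; adjusted p = 0.00061), to a level below the median gene, and FOXA2, a pioneer factor of liver and gut, fell by 1.12 (SE 0.09; adjusted p = 0.0018). CEBPB, NR2F1 and PPARGC1A were called under every alternative that tested them, and FOXA2 lost its call only without knockout 2 (adjusted p = 0.051). PPARGC1A was -0.61 with the mean of its 2 probe sets, against -1.43 with the brightest. The other 7 called factors all lost their calls without knockout 1 and again without knockout 2. The list shows how these transcripts differed, and their part in the level of APOA2 was not tested.

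**Figure D4:**
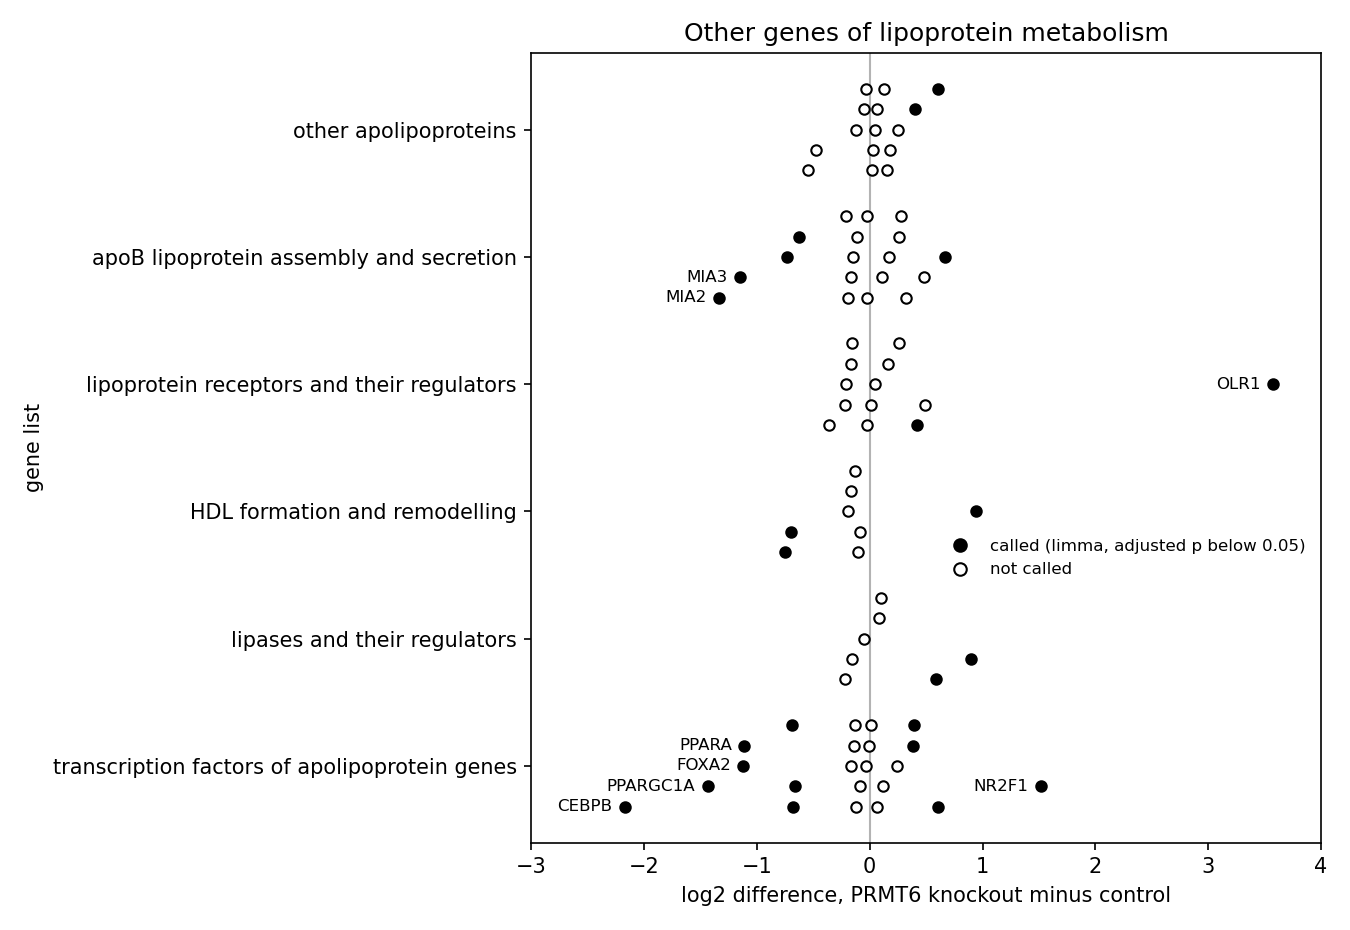
Log2 difference, PRMT6 knockout minus control (horizontal axis), of each measured gene in the 6 lists of lipoprotein metabolism (rows); filled points were called in limma, open points were not, and called genes beyond 1 unit are named. OLR1 at 3.57 and CEBPB at -2.17 are the outermost points, and most open points lie near 0.

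Markers of gastric and simple epithelium, hepatocytes, enterocytes and macrophages were checked beside these values. Over all genes 24.0% were called, 12.4% higher and 11.5% lower. Of the 13 gastric and simple epithelial markers 2 rose (KRT19 by 0.61, SE 0.08, and KRT8) and 3 fell (TFF1, CTSE by 0.96, SE 0.08, and PGC by 0.79, SE 0.08). KRT18, KRT8, KRT19 and EPCAM were bright on all arrays, while GKN1 (3.42 to 3.52) and TFF2 (4.73 to 4.89) were dim. Of the 12 hepatocyte markers 1 rose (FGA, by 1.78, SE 0.13) and 2 fell (ASGR1 and SERPINA1). On gene-specific probe sets neither FGA, at 0.32 (adjusted p = 0.052), nor SERPINA1, at -0.04 (adjusted p = 0.87), was called. The summed linear intensities of the list were 2008 to 2145 in knockout cells, against 1465 to 1476 in control cells, and rested mainly on the fibrinogen genes FGG, with means of 10.19 in knockout and 9.86 in control cells, and FGA (9.16 and 7.38). Albumin (ALB) was dim in both groups, at 3.12 and 2.83 in knockout cells against 3.03 and 3.21 in control cells. Of 9 enterocyte markers 3 rose, CDX2 by 1.00 (SE 0.10), VIL1 by 0.97 (SE 0.09) and FABP1, which was dim, by 0.52 (SE 0.11). The other 6 were not called, at -0.28 (ALPI), -0.27 (FABP2), -0.04 (CDX1), 0.004 (ANPEP), 0.07 (CDHR5) and 0.26 (SI). FABP1 lost its call both on gene-specific probe sets, where it was 0.37 (adjusted p = 0.070), and under reference gene scaling, where it was 0.22 (adjusted p = 0.13). The sums were 1760 to 1798 in knockout cells against 980 to 1049 in control cells, most of it VIL1 (means of 10.41 in knockout and 9.43 in control cells). Of 8 macrophage markers AIF1 rose by 1.30 (SE 0.09) and CSF1R fell by 0.63 (SE 0.12), with sums of 2930 to 5647 in knockout cells against 7268 to 7797 in control cells. Most of that sum is LYZ, a lysozyme also made by epithelia, which had 12.36 and 11.30 in knockout cells against 12.77 and 12.88 in control cells and was not called. PTPRC, which marks all leukocytes, was dim, at 3.42 and 3.03 in knockout cells against 2.63 and 2.84 in control cells. The AIF1 probe set carries the suffix for possible cross-hybridization, and AIF1 was not read by a gene-specific probe set. Dropping 1 array ended the calls of FGA, ASGR1, SERPINA1, CDX2, VIL1, FABP1, CSF1R, KRT19, CTSE and PGC in at least 1 of the 4 fits, and those of AIF1 and TFF1 in none. The part of these markers in the apolipoprotein values was not tested. In bulk RNA, fewer cells with a transcript and less of it per cell cannot be told apart.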

How the data were processed

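RNA of 4 arrays was analysed, 2 of PRMT6-knockout and 2 of control AGS cells, grouped by their labels. The authors deposited 1 table of log2 intensities for 54613 probe sets; per the submitters' processing notes, RMA and affy were used (versions not given in the sources used here). The values, 1.64 to 14.16, fit a log2 scale. Quantile normalization, part of RMA, removes changes in total RNA, so differences are relative to other transcripts. The number of arrays limits the precision, and an exact permutation test of 2 against 2 could not go below p = 0.333.

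Probe sets were named from the platform annotation, with symbols updated to RefSeq GRCh38.p14: 41091 had 1 symbol, 1801 several and 11721 none. Genes came from probe sets with 1 symbol, the brightest of each. The group difference was fitted in R 4.3.3 with limma 3.58.1 (lmFit, eBayes, no covariates, 2 residual and 3.27 prior degrees of freedom) over 19775 genes; the script was tested on simulated data. Values of a gene's other probe sets came from a fit over all probe sets. The genes described and the lists were chosen with earlier results of these data known. Named were all 10 genes, PRMT6, their cluster neighbours and the 3 nearest profiles. In each list, up to 4 called genes were named (2 where none was called). P4HB, the uncalled enterocyte markers and the markers given for brightness or for their part in a sum were named after their values were seen. Alternatives were the mean of probe sets, gene-specific probe sets, brighter genes, an intensity trend, reference gene scaling, renewed quantile normalization, a replicate block and each array left out. Same-numbered arrays did not deviate together (r = 0.05 across genes).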

Additional observations from a re-analysis of the deposited data

How the results depend on the processing

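With single arrays left out, genes called higher ran from 154 to 1371 and lower from 354 to 1258, members called higher from 0 to 1, and other lipoprotein genes called higher from 2 to 8 and lower from 3 to 13. Where 1 array of a group was left, it was assumed to vary like the other group. Of the 25 called lipoprotein genes, 20 lost their call in at least 1 of these fits and 4 were called under every alternative. Reference gene scaling moved the median of all genes to -0.31, left 1112 genes called higher and 9647 lower (10.3% of calls higher, against 51.9%), 0 members higher and 4 lower (APOA1, APOA2, APOA4 and APOE), 7 other lipoprotein genes higher and 41 lower, and a median of the members of -0.25. Of the 11 reference genes measured, 6 were called higher and 0 lower before scaling, so the scaling lowered every gene's difference. Gene-specific probe sets, which read 5 of the 10 members, gave 1613 genes higher and 0 members higher. On them the APOH difference was -0.016, the reverse of the main value. The replicate block, on numbers that did not pair the arrays, left 2035 genes higher, 1937 lower and 1 member higher (APOC1). The mean of probe sets, the brighter genes, the trend and renewed quantile normalization kept each of these counts within 1.5 times; among brighter genes APOL1 was called and APOH was not tested. Detection over background was not assessed.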
